A study of Mus musculus with 6 samples.

Results

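In scattered stretches of the mouse autosomes, neighbouring ATAC-Seq sites were on average more accessible in HAT1-/- than in HAT1+/+ fibroblasts. The median autosomal site was slightly lower in HAT1-/- (log2 difference of -0.06). Both values rest on the authors' library scaling, which is not given in the sources used here. The stretches with higher accessibility, called raised neighbourhoods, were chosen on the ATAC-Seq values themselves. The sites of chromosomes 1 to 19 were ordered by position, d was taken as the log2 level in HAT1-/- minus that in HAT1+/+ cells, and m as the mean of d over the 25 consecutive sites of which the site is the middle one (fewer where the chromosome ends). Sites with m of 0.30 or more were members, and consecutive members were joined into runs. This gave 884 members of 225604 autosomal sites, which is 0.392%, out of 229903 sites tested in all. They formed 208 runs, with at least 1 on each of the 19 autosomes.

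The study used primary mouse embryonic fibroblasts (MEFs), cells grown directly from dissected mid-gestation embryos after the internal organs were removed. HAT1+/+ and HAT1-/- embryos of the C57bl6 strain background gave 3 samples of each genotype, and all cells were grown in DMEM with fetal bovine serum and penicillin and streptomycin, with no other treatment. The loss of HAT1 was present from conception and in every cell, so an effect of the embryo's development without HAT1 and an effect in the cultured cell cannot be told apart. The values used are the authors' log2 genotype means, written here also as normalized reads per site (2 to the power of that value), so no spread between the samples of a genotype can be given and the depth of each library is unknown.

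HAT1 is the acetyltransferase that marks newly made histone H4 in the cytoplasm and nucleus before it is built into chromatin behind the replication fork. The acetyl groups are removed as the new chromatin matures. ATAC-Seq uses a transposase that cuts and tags DNA not covered by nucleosomes, so the reads at a site measure how open it is. Open sites are mostly promoters, where transcription starts, and enhancers, which lie in introns and between genes and bind transcription factors. In fibroblasts the AP-1 factors (Fos and Jun) and the TEAD factors are known to bind many enhancers.

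The sequences below are the central 300 bases of the site with the highest mean level in each of the 5 raised runs with the most member sites. They are shown because they are the best covered open DNA of these neighbourhoods, and not for their difference between genotypes. Their d was 0.17 (Zfpm2 run), 0.79 (Ikzf1), 0.48 (Tiam2), -0.18 (Zmiz1os1) and 0.55 (Gm5149). They are read from GRCm38, the assembly of mm10, and capitals mark matches on either strand to the AP-1 motif TGANTCA or the TEAD motif GGAATG.
Zfpm2 run, chr15:40958138-40958437, plus strand: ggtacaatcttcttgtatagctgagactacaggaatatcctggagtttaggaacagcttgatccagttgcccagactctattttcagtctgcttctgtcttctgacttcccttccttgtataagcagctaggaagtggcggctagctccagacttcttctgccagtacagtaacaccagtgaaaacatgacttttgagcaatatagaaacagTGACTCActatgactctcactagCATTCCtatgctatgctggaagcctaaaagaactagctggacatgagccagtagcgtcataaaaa
Ikzf1 run, chr11:11730390-11730689, plus strand: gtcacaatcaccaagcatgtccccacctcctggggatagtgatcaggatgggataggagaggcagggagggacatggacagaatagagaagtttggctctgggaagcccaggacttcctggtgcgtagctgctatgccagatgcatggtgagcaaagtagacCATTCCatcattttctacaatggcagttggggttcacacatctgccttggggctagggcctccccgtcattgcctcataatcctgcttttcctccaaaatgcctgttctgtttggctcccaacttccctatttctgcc
Tiam2 run, chr17:3464178-3464477, plus strand: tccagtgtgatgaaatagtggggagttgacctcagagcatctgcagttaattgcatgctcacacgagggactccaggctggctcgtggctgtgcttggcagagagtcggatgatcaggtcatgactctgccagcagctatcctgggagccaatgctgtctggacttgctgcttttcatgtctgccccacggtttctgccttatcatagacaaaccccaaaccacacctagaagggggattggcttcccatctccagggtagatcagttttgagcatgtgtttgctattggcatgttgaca
Zmiz1os1 run, chr14:25304380-25304679, plus strand: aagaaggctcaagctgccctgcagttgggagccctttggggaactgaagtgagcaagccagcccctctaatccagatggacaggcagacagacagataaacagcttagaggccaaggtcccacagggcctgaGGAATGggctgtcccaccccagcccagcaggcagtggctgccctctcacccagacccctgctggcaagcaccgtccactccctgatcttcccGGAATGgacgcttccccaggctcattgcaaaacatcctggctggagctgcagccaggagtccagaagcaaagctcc
Gm5149 run, chr3:149349147-149349446, plus strand: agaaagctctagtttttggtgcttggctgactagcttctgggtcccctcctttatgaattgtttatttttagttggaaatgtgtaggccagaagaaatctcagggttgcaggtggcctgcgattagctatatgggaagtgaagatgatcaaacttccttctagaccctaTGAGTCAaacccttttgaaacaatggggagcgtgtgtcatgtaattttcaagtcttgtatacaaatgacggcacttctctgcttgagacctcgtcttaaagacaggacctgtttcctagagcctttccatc
The Zfpm2 sequence held 1 AP-1 and 1 TEAD match, the Ikzf1 sequence 1 TEAD match, the Zmiz1os1 sequence 2 TEAD matches and the Gm5149 sequence 1 AP-1 match. The Tiam2 sequence held neither. A match is a description of the letters and not evidence of binding.

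The runs were short. Of the 208 runs, 81 were a single site, the median run had 2 sites, 66 runs had at least 5 sites and 30 had at least 10. The 66 runs of at least 5 sites held 635 of the 884 members. From first to last member site the median run spanned 5.73 kb and the longest 264 kb, and together the runs covered 5.14 Mb, or 0.209% of the autosomes. The windows of 25 sites behind the members covered 36.8 Mb, or 1.5%. Runs lay near each other in places. When runs no more than 1 Mb apart were joined, 119 of the 208 fell into 47 groups of at least 2 runs, and the group with the most runs had 6 of them with 47 member sites on chromosome 15 (39962414 to 41763499).

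The moving mean was lopsided towards lower accessibility. The highest m was 0.539 and the lowest -2.23, around a median of -0.05. Sites with m of -0.30 or less, called lowered here, numbered 16170. The members were the upper edge of a continuous distribution, since 195 sites had m from 0.29 up to 0.30 and 161 members from 0.30 up to 0.31, while 91 members reached 0.40. At the threshold, 3 members with m of 0.30 had d of 0.47 (an intronic site on chromosome 2, 7.84 and 10.9 reads in HAT1+/+ and HAT1-/-), 1.01 (intronic, chromosome 8) and -0.59 (intergenic, chromosome 9). The 3 sites just outside, with m of 0.2996, had d of -0.21 (intronic, chromosome 14), 0.31 (intergenic, chromosome 16) and 0.32 (exonic, chromosome 17). Values of single sites on both sides of the threshold overlapped.

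**Figure D1:**
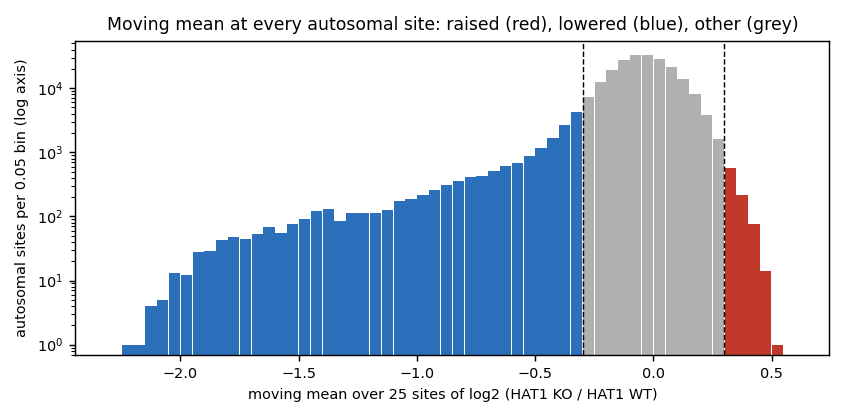
Histogram of the moving mean m of log2 (HAT1-/- over HAT1+/+) for 225604 autosomal sites, in bins of 0.05, with the number of sites on a log axis and dashed lines at -0.30 and 0.30. The raised tail (red, 884 sites) ends at 0.539, whereas the lowered tail (blue, 16170 sites) extends to -2.23.

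The selection rule includes a comparison with d shuffled within chromosomes, which keeps each chromosome's values and removes their order. Over 100 shuffles the number of runs averaged 39.0 (21 to 58) against 208 observed, and the number of members 106.5 (53 to 183) against 884. Runs of at least 5 sites averaged 6.25 (0 to 12) against 66, and runs of at least 10 sites 1.63 (0 to 5) against 30. The most sites in a run averaged 13.2 (4 to 25) against 22, so the observed longest run lay inside the shuffled range. In a further description, runs were called on the odd-numbered sites of each chromosome alone, with windows of 13 sites, and the even-numbered sites lying within runs of at least 2 such sites were read out. These 1245 even-numbered sites had a mean d of 0.07 ± 0.56 (SD over sites), and 57.2% were above 0. The other 111551 even-numbered sites had a mean of -0.08 ± 0.57, and 43.8% were above 0. The odd-site runs of at least 2 sites numbered 339 and were not the 208 runs of the rule, so these values do not check the members. Both sets come from the same libraries and share their normalization, so no test was made.

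Because d chose the members, their values are given as a description. Members had a median of 11.1 reads in HAT1+/+ and 14.2 in HAT1-/-, a median d of 0.33 and a mean of 0.39 ± 0.55 (SD over sites). Of the 884, 685 (77.5%) had d above 0, beside 44% of all autosomal sites, and 109 (12.3%) had d of 1 or more, beside 2.78% of all autosomal sites. Nothing is read from these shares, since the same contrast picked the sites. Summed over members, the reads in HAT1-/- were 1.17 times those in HAT1+/+, and over the other autosomal sites 0.946 times. The neighbourhoods were mixed, with 189 members below 0, and d of single members ran from -1.51 to 3.09. Over the whole window around each run, 53.6% to 96.0% of the sites were above 0, with a median of 71.9%. Window sums were higher in HAT1-/- for 198 of the 208 runs, and their ratio had a median of 1.13 and ran from 0.941 to 1.34. Only 65 runs had a window whose median d was itself 0.30 or more.

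Weaker members had larger d. When all autosomal sites were split by mean level into 4 classes of nearly equal number, the members' median d was 0.49 in the lowest class (up to 8.75 reads), 0.37 and 0.31 in the middle classes and 0.20 in the highest (28.8 reads or more). The spread of d over all sites fell along the same order, with an SD of 0.74 in the lowest class and 0.38 in the highest. The share of sites that were members was 0.483% in the lowest class and 0.316% in the highest. The part of low read numbers in the choice of members was not tested.

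The 10 runs with the most sites held 174 members, of which 146 had d above 0, 25 below 0 and 3 at 0. In these runs 80 members had fewer than 10 reads in HAT1+/+ and a median d of 0.68, and the other 94 had a median d of 0.29. Of the 27 members with d of 1 or more, 23 had fewer than 10 HAT1+/+ reads. The median site was higher in HAT1-/- in 10 of the 10 runs. Summed reads were 1.04 to 1.36 times those in HAT1+/+, and the site with the highest level in each run had d from -0.18 to 0.79, above 0 in 8 of 10.

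**Figure D2:**
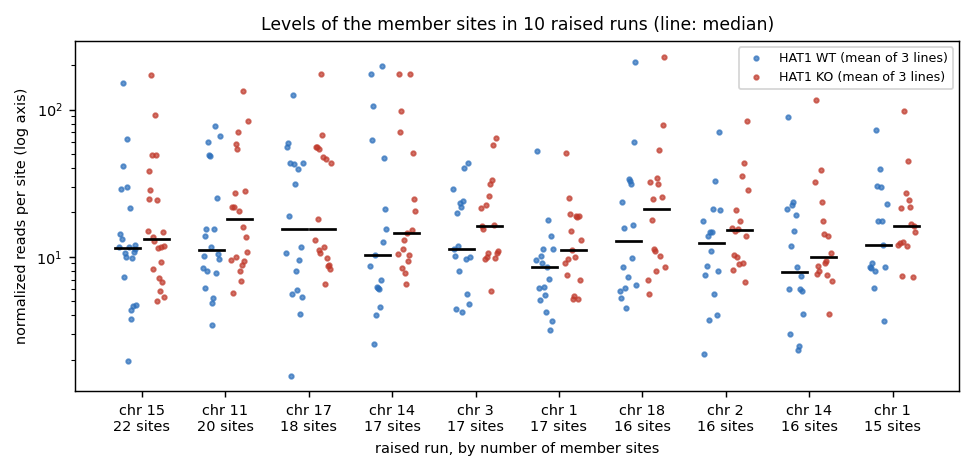
Normalized reads (log axis) of the member sites in the 10 raised runs with the most sites, as the authors' mean of 3 samples for HAT1+/+ (WT, blue) and HAT1-/- (KO, red), 1 point per site and a black line at the median. The points overlap widely, and the median is higher in HAT1-/- in each run, least so in the run on chromosome 17 (15.4 against 15.5).

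The run with the most sites, 22, lay on chromosome 15 (40953774 to 41165854, 212 kb) at the 3′ part of Zfpm2 (40655035 to 41104592, plus strand), a cofactor of GATA factors in heart and gonad development, and in the intergenic DNA after it. In HAT1+/+ its sites ran from 1.95 to 152 reads with a median of 11.5, and in HAT1-/- from 5.03 to 171 reads with a median of 13.2. Of the 22 sites, 20 were higher in HAT1-/- and the summed reads were 1.29 times those in HAT1+/+. The best covered site, printed above, lies within 3 kb of the unclassified transcript Gm49526, and moved from 152 to 171 reads. An intronic site from 41028068 moved from 63.6 to 92.4 reads. The intronic site from 41076283 went the other way, from 21.6 to 11.4 reads.

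The run on chromosome 11 (11658997 to 11763743, 105 kb, 20 sites) held the start and most of Ikzf1 (11685003 to 11772926, plus strand), which encodes Ikaros, a transcription factor of lymphocyte development. Its sites ran from 3.43 to 77.7 reads in HAT1+/+ with a median of 11.1, and from 5.70 to 134 in HAT1-/- with a median of 18.2. Of the 20 sites, 18 were higher in HAT1-/-, 17 of the 20 were intronic, and the summed reads were 1.35 times those in HAT1+/+. The promoter site at the start of Ikzf1 had 60.1 and 58.1 reads (d of -0.05). The intronic site printed above had 77.7 and 134 reads (d of 0.79). The higher sites lay mostly in introns, of Ikzf1 and of the noncoding gene Gm11999 upstream of it.

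On chromosome 17 (3442012 to 3510168, 18 sites) the run lay inside Tiam2, a guanine nucleotide exchange factor for the GTPase Rac. Of its sites, 13 of 18 were higher in HAT1-/-, with medians of 15.4 and 15.5 reads. Its highest d, 2.83, came from a site with 1.56 reads in HAT1+/+ and 11.1 in HAT1-/-. The site printed above had 125 and 175 reads. The run on chromosome 14 from 25217957 to 25315672 (17 sites) lay partly in the antisense gene Zmiz1os1. Its summed reads were 1.04 times those in HAT1+/+. The best covered site had 198 reads in HAT1+/+ and 175 in HAT1-/-, and another had 176 in both. The 17-site run on chromosome 3 (149233473 to 149375281) overlapped only the noncoding genes Gm5149, Gm30382 and Gm26468. Of its sites, 15 of 17 were higher in HAT1-/-, with medians of 11.3 and 16.2 reads, and its best covered site moved from 43.7 to 64.0.

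Of the other runs with many sites, the one on chromosome 1 from 118497828 to 118597819 (17 sites) lay in Clasp1, which stabilizes microtubule ends, with medians of 8.57 and 11.2 reads. The run on chromosome 18 (14601721 to 14712094, 16 sites) held the starts of Ss18, a subunit of the BAF chromatin remodelling complex, and of Psma8, a proteasome subunit of germ cells. Its medians were 12.8 and 21.2 reads, and the Ss18 promoter had 211 and 229. A run in Wipf1, which binds actin regulators of the WASP family, lay on chromosome 2 (73431951 to 73486609, 16 sites) with medians of 12.4 and 15.2 reads. The longest run, 264 kb with 16 sites, lay inside Lrmda on chromosome 14 (22085368 to 22349400), with medians of 7.91 and 10.0 reads and 12 of 16 sites higher. The run on chromosome 1 from 171540799 to 171607444 (15 sites) held the starts of Cd244a and Ly9, receptors of the SLAM family on blood cells. The Cd244a promoter had 73.0 reads in HAT1+/+ and 97.7 in HAT1-/-, and the Ly9 promoter 22.8 and 14.6. The genotype means of these neighbouring promoters thus differed in opposite directions, and no spread between samples can be given.

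The highest m, 0.539, was in an 11-site run inside Fhit, a hydrolase gene on chromosome 14 (run from 10133977 to 10340015). There 8 of 11 sites were higher in HAT1-/-, yet the median was 12.9 reads in HAT1+/+ and 10.1 in HAT1-/-. Sites from 10166695 (13.6 and 4.79 reads) and 10323091 (12.9 and 8.34) were lower in HAT1-/-. A high moving mean thus did not mean that each site in the run rose.

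**Figure D3:**
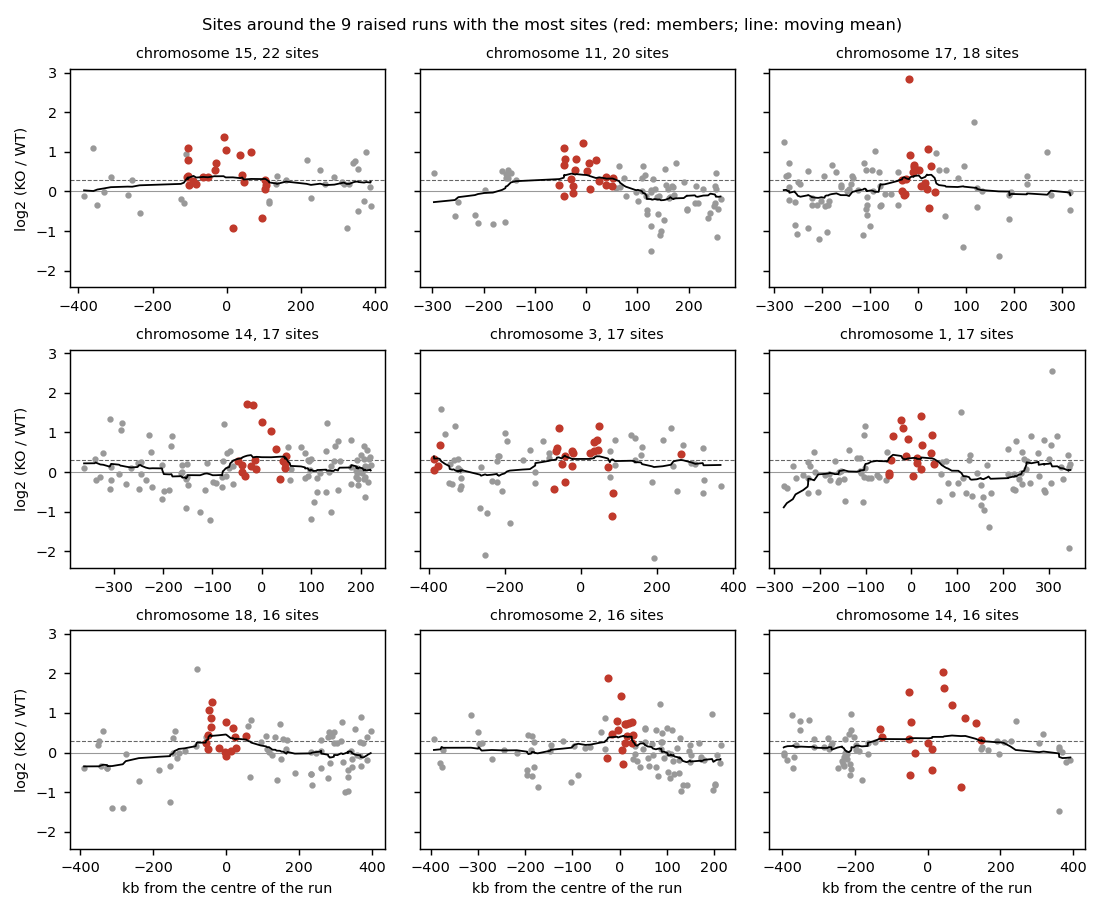
Log2 (HAT1-/- over HAT1+/+) of each site against its distance in kb from the run's centre, for the 9 raised runs with the most sites. Red points are members (also of neighbouring runs), grey points other sites, the line is the moving mean and the dashed line marks 0.30, and single sites range from below -2 to 2.83 around a moving mean that peaks between 0.392 and 0.456.

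Sites at the starts of protein-coding genes inside the runs had d near 0 in the median. GENCODE places 51229 gene starts on the autosomes, of which 101 (0.197%) lay inside a run, 36 of them protein-coding. For 32 of the 36 a tested site lay within 3 kb of the start. These 32 sites had medians of 82.7 reads in HAT1+/+ and 88.8 in HAT1-/-, a median d of 0.07, 18 above 0 and 14 below, and 5 at 0.30 or more. Members over 10 kb from any protein-coding start numbered 729 (82.5% of members, against 76.3% of other sites), with medians of 10.6 and 13.5 reads and a median d of 0.34. These distant members were weaker than the sites at gene starts, and the part of level in the difference in d was not tested. The genes named next were picked after their values were seen. Zc2hc1b had the highest d at its start (1.04) with 3.03 and 6.23 reads, and Fcgr2b, an inhibitory antibody receptor, had 13.3 and 22.0. The promoter of Ripk2, a kinase of innate immune signalling, was the most open, with 1218 and 1323 reads. The site nearest the start of Jam3, a junctional adhesion molecule, had 209 and 141 reads.

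By annotation, 400 members (45.2%) were intronic, against 35.4% of other autosomal sites, 225 (25.5%) intergenic, against 32.0%, 215 (24.3%) within 3 kb of an annotated transcript start, against 28.3%, and 44 (4.98%) exonic, against 4.39%. The median d was 0.37 for intronic, 0.34 for intergenic, 0.30 for exonic and 0.27 for promoter members. Of the 208 runs, 129 overlapped a protein-coding gene and 53 had all their sites in introns. The 122 protein-coding genes that overlapped a run had a median length of 101 kb, against 17.6 kb for all autosomal protein-coding genes. A longer gene has more room to overlap a run, so no test was made of that difference.

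Features of the DNA around the sites did not enter d and were tested over chromosomes. The number of tested sites around is less separate, since the rule counts its windows in tested sites. Site width is less separate too, since the sites and their bounds were called in these same libraries. For each chromosome with at least 5 members the median (or share) of the members was compared with that of its other sites, by a two-sided exact sign-flip permutation test over 18 chromosomes whose smallest p is 7.63e-06. Chromosome 7 had 3 members and was left out. The 10 tests of features were adjusted together by the Benjamini-Hochberg method.

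Raised sites lay in surroundings with fewer genes than other sites. The median number of gene starts within 500 kb averaged 17.8 for raised and 22.2 for other sites, a difference of -4.42 ± 3.63 (SD, 18 chromosomes), below 0 on 17 of 18 chromosomes (exact sign-flip test, adjusted p = 1.27e-04). Raised sites were also narrower, by -0.10 ± 0.10 in log2 width, on 16 of 18 chromosomes (exact sign-flip test, adjusted p = 0.00179). Their central 200 bases had less GC, at 48.4% against 49.9%, a difference of -1.46 ± 2.08 percentage points, lower on 14 of 18 chromosomes (exact sign-flip test, adjusted p = 0.0110). Median levels moved with these results, at 12.7 mean reads for raised and 14.2 for other sites, and their part was not tested. When m had to reach 0.40, none of these 3 differences passed the threshold, and the difference in site GC turned to 0.33 points higher over 10 chromosomes. With the weakest 25% of sites left out, the difference in gene starts was -9.04 and the one in width no longer passed.

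Other surroundings did not differ by a test that passed the threshold. The GC content of the 200 kb around the site averaged 43.5% for raised and 44.2% for other sites (difference -0.74 ± 2.29, exact sign-flip test, adjusted p = 0.207). Tested sites within 500 kb averaged 124 and 133 (difference -9.14 ± 26.7, exact sign-flip test, adjusted p = 0.207). The share of promoter sites averaged 26.4% and 27.6% (difference -1.26 ± 8.85, exact sign-flip test, adjusted p = 0.554). With the weakest 25% of sites left out, the GC difference was -3.07 and the difference in tested sites -41.5, and both passed. Counting only sites within 1 kb of a start as promoters gave a difference of -4.51, which also passed.

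With members as called by the rule, raised sites lay in DNA richer in GC and genes than the lowered sites of the same chromosomes. They also had more tested sites around them. The GC content of the 200 kb around was 43.5% against 40.2%, a difference of 3.28 ± 2.33 (exact sign-flip test, adjusted p = 1.27e-04, higher on 16 of 18 chromosomes). Gene starts within 500 kb averaged 17.8 and 11.7, a difference of 6.03 ± 5.16 (exact sign-flip test, adjusted p = 5.49e-04, 15 of 18). Tested sites within 500 kb averaged 124 and 60.6, a difference of 63.6 ± 27.1 (exact sign-flip test, adjusted p = 7.63e-05, 18 of 18). The share of promoters was 26.4% and 16.5%, a difference of 9.89 ± 8.30 points (exact sign-flip test, adjusted p = 4.20e-04, 14 of 18). With the weakest 25% of sites left out, the differences in GC (0.47), gene starts (0.71) and promoter share (10.4) no longer passed, nor did GC (0.84) and gene starts (4.75) when m was taken from summed reads. Promoter share also failed at a cutoff of 0.40 (10.8) and with promoters within 1 kb (2.24). Of the 4 measures only the number of tested sites passed under each of the alternatives run for it. Its differences ran from 24.7 (weakest 25% left out) to 62.4. That measure is not separate from the choice of sites, since windows were counted in tested sites and the sites were called in these same libraries. The median window spanned 167 kb for raised and 529 kb for lowered sites. Of the members, 11.7% were within 1 Mb of a site with m of -0.58 or less, against 10.3% of sites that were neither raised nor that low.

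**Figure D4:**
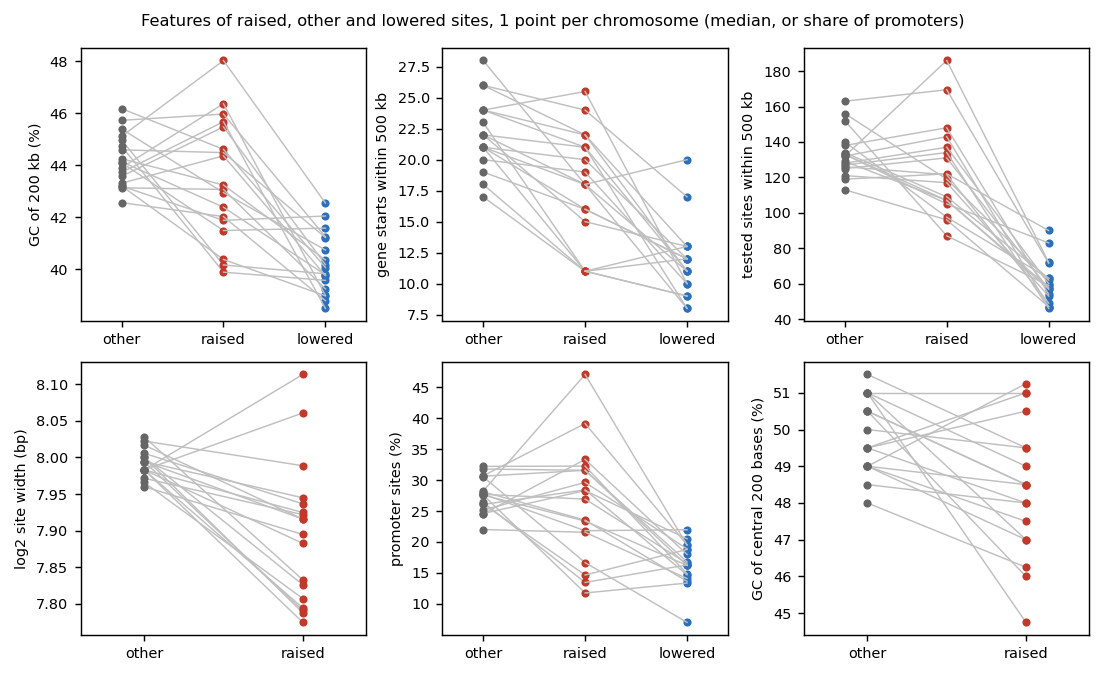
The 6 tested features of raised (red), other (grey) and, for 4 features, lowered (blue) sites, 1 point per chromosome (18 chromosomes) with a line joining the values of a chromosome; points are medians, or shares for promoters. Mean gene starts are 22.2 for other, 17.8 for raised and 11.7 for lowered sites. The difference between raised and lowered sites no longer passed with the weakest 25% of sites left out (0.71). Tested sites within 500 kb are fewer for lowered (60.6) than for raised sites (124) on 18 of 18 chromosomes. That measure is not separate from the choice of sites.

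The 4 short motifs below were searched on both strands in the central 200 bases of every site. AP-1 (TGANTCA) was found in 24.1% of members and 22.9% of all autosomal sites, TEAD (GGAATG) in 13.8% and 15.5%, the GC box (GGGCGG), a common promoter element, in 4.75% and 8.61%, and the ETS motif (CCGGAAG) in 1.92% and 1.80%. Averaged over 18 chromosomes, the raised minus other difference was 0.26 ± 9.02 points for AP-1 (exact sign-flip test, adjusted p = 0.903 over 4 motifs) and -0.77 ± 6.06 for TEAD (exact sign-flip test, adjusted p = 0.794). For the GC box it was -2.99 ± 4.75 (exact sign-flip test, adjusted p = 0.0700), and for ETS 0.33 ± 2.19 (exact sign-flip test, adjusted p = 0.794). None passed the threshold of 0.05, and the ETS and TEAD motifs share the letters GGAA.

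Raised sites were unevenly spread over the autosomes. Chromosome 15 had 102 members, 0.989% of its sites, followed by chromosome 14 with 75 (0.772%), chromosome 18 with 51 (0.624%) and chromosome 17 with 62 (0.622%). Chromosome 7 had the fewest, 3 of 12884 sites (0.0233%). Chromosome medians of d differed little, from -0.09 on chromosome 7 to -0.04 on chromosomes 15, 16 and 18. The first 10 Mb of the chromosomes held 110 members (12.4%), against 5.18% of other sites, and the starts of 17 of the 208 runs (8.17%). Of the 110 members, 71 were on chromosomes 17, 18 and 19, which were singled out after their values were seen. On chromosomes 1 to 16, 39 of 753 members (5.18%) lay in the first 10 Mb, against 4.40% of other sites. With 1 value for each chromosome, the unevenness was not tested.

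**Figure D5:**
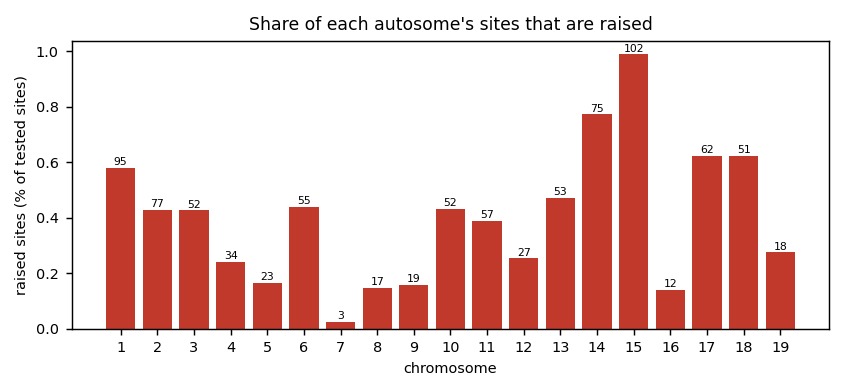
Members as a percentage of the tested sites of each autosome, with the number of members above each bar. The share runs from 0.0233% on chromosome 7 to 0.989% on chromosome 15.

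Gene families were looked up in the runs and in the wider windows around them. No gene of the lists for fibroblast extracellular matrix, mesenchymal transcription factors, AP-1, p53 and senescence, nuclear lamina, histone H3-H4 assembly, H3K9 methylation and heterochromatin, or ribosomal proteins started in a run or a window, where 0.197% and 1.42% of all genes did. Of 1128 olfactory receptor genes, which are silent in fibroblasts, 0 started in a run and 30 (2.66%) in a window. The windows also held the starts of Hoxd11, Hoxd12 and Hoxd13, limb and digit patterning factors, of 7 of 49 keratin genes, of 8 of 358 Zfp genes and of 5 of 356 solute carriers. The site nearest the Hoxd13 start had 18.5 and 29.4 reads, and those of Hoxd12 and Hoxd11 had d of 0.05 each. The 7 keratin genes lay beside a single-site run on chromosome 15, where their nearest sites ran from 4.41 to 12.6 reads in HAT1+/+ and from 6.06 to 12 in HAT1-/-. No vomeronasal receptor, clustered protocadherin or replication-dependent histone gene started in a window.

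The cells carried open fibroblast genes in both genotypes. All 11 fibroblast markers had sites within 3 kb of their start, with summed levels from 108 to 673 reads in HAT1+/+ and from 131 to 697 in HAT1-/-, and none of these sites was a member. Sites of the 3 autosomal blood markers ran from 8.28 to 117 reads in HAT1+/+ and from 13 to 159 in HAT1-/-, and each of the 3 was higher in HAT1-/-. Spi1, a myeloid transcription factor, had 117 and 159 reads, Cd68 101 and 111, and Ptprc, the leukocyte surface protein CD45, 8.28 and 13. None of their sites was a member. The part of blood cells in the runs at Ikzf1, Cd244a and Ly9 was not tested. Epithelial, endothelial, neural and muscle markers likewise had no member, and their summed levels ran from 7.16 to 230 reads in HAT1+/+ and from 11.8 to 221 in HAT1-/-. Higher levels in HAT1-/- were not particular to blood markers. Among the endothelial markers, Pecam1 (47.8 and 56.6 reads), Cdh5 (69.8 and 97.9) and Tie1 (7.16 and 12.6) were also higher, and Kdr (137 and 103) was lower.

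The deleted gene lay outside the raised neighbourhoods. Hat1 on chromosome 2 had 3 tested sites. Its promoter had 207 reads in HAT1+/+ and 239 in HAT1-/-, an intronic site 12.6 and 17.5, and the site from 71421184 to 71421348 had 22.0 and 3.41. Their m ran from -0.20 to -0.15.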

How the data were processed

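ATAC-Seq was performed on 3 HAT1+/+ and 3 HAT1-/- primary MEF samples taken from separate embryos per the labels. The authors used the ENCODE pipeline with bowtie2 on mm10, called peaks with MACS2 and ran DiffBind 2.14.0. The library scaling and the rule for the shared site list are not given in the sources used here. Per the file headers, the deposited log2 values are the mean level of a site over all samples and over each genotype. The deposited fold change, p-value and FDR columns are the authors' own comparison and were not used. Members were chosen on m, the moving mean of d, and d is a difference of genotype means. The p-values here thus describe the spread between chromosomes and not between samples.

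Annotation was GENCODE vM21, and sequence GRCm38. A promoter site lay within 3 kb of a transcript start, and promoters took precedence over exons and introns. Features were compared by exact sign-flip tests over chromosomes. The text names, by a separate rule of this re-analysis that is no part of the choice of members, the 10 runs with the most sites, the longest run, the run with the highest m, Hat1, the listed genes and 3 sites on each side of the threshold. Members, lists and rules were chosen with earlier results of these data known. The run caller and the sign-flip test were tested on simulated data. Python 3.11.15, numpy 2.4.6, pandas 2.3.3, scipy 1.17.1 and matplotlib 3.10.9 were used. Alternatives changed the window, the cutoff, the level filter, the averaging and the feature definitions. Read numbers per site limit the precision, and the depth per sample is unknown.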

Additional observations from a re-analysis of the deposited data

How the results depend on the processing

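The number of raised sites depended on each choice in the calling. Against 884 sites in 208 runs, a window of 51 sites gave 8 sites in 5 runs, a cutoff of 0.20 gave 6299 in 1298, a cutoff of 0.40 gave 91 in 30, leaving out the lowest 25% of mean levels gave 218 in 61, and the ratio of summed reads gave 379 in 79. Keeping only runs of at least 5 sites left 635 sites in 66 runs. Of 3 settings chosen after seeing the data, a moving median gave 1314 sites in 304 runs, centring d on its median 3041 in 684, and leaving out the highest d of each window 298 in 83. No feature test could be made with the window of 51 sites, since too few chromosomes had 5 members.

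For raised minus other sites, the difference in GC of 200 kb newly passed the threshold at a cutoff of 0.20 (-1.04), without the lowest 25% (-3.07), with summed reads (-2.49) and in runs of at least 5 sites (-1.55). The difference in tested sites newly passed at 0.20 (-6.45), at 0.40 (-30.9), without the lowest 25% (-41.5) and with summed reads (-27.2), and that in promoter share at 0.20 (-2.82) and with promoters within 1 kb (-4.51). At 0.40 the differences in gene starts (-4.25) and width (-0.14) no longer passed, and that in site GC reversed to 0.33. Width also failed without the lowest 25% (-0.10), where the ETS difference reversed to -0.76.

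For raised minus lowered sites, GC no longer passed without the lowest 25% (0.47) or with summed reads (0.84), nor did gene starts (0.71 and 4.75). Promoter share no longer passed at 0.40 (10.8), without the lowest 25% (10.4) or within 1 kb (2.24). The causes were not tested. Of 70 alternatives of feature and motif tests, 2 reversed a difference. No paired analysis was possible because the values are genotype means, and for the same reason no sample could be left out. Most raised sites had few reads, and the genotype means used here carry no error between samples. The p-value and FDR columns of the authors' own comparison were not used.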

Other observations

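Chromosome X was outside the rule. By the same calculation 217 of its 4263 sites (5.09%) had m of 0.30 or more, in 34 runs with up to 32 sites, the highest m was 0.925, and the median d over its sites was 0.03. The paper identified a domain of lower accessibility without HAT1 on chromosome Y and left it out of its later steps. The sex of the embryos was not taken into account here, and the part of a difference in sex between the groups was not tested.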
